A study of Tabanus nipponicus with 3 samples.

Results

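Genes named for neuropeptides, their receptors, transmitter receptors, calcium channels and synaptic or neuronal proteins were followed in the midgut of the horse fly Tabanus nipponicus. A unigene, a transcript built from overlapping reads where no genome is at hand, was a member when the first protein name listed for it held 1 of 19 search terms, such as neuropeptide, allatostatin, G-protein coupled receptor, glutamate receptor, synaptotagmin, elav or voltage-dependent. The rule used names and no measured value, and it found 36 of 8039 unigenes, or 0.448%. The samples were 3 wild-caught adult females, labelled WT, with no treatment named and 1 midgut sequenced from each, called fly 1, fly 2 and fly 3. The sources used here do not give their age or feeding state. There was 1 group and no contrast between conditions, so levels and differences between individuals are described and no test was made.

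Neuropeptides are short signalling peptides cut from larger precursors and sensed mostly by G-protein coupled receptors on other cells. In the insect midgut they come from scattered enteroendocrine cells and from the axons that reach the gut wall, and they act on muscle contraction, enzyme secretion, feeding and metabolism. Glutamate receptors, calcium channels and synaptotagmins belong to the machinery of synapses and of regulated secretion, and a midgut sample also carries the nerve endings and muscle on its outer side.

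The 36 unigenes fell into 9 role classes. The classes were 1 peptide precursor, 1 peptide-processing enzyme, 10 peptide and other G-protein coupled receptors, 1 amine receptor, 7 glutamate and GABA receptors, 7 calcium channel subunits, 2 synaptotagmins, 5 RNA-binding proteins of the ELAV and CELF families, and 2 proteins that carry a searched word without being a receptor or a synaptic synaptotagmin. Of the 19 terms, 8 matched no member, namely diuretic hormone, prohormone, dopamine receptor, serotonin receptor, acetylcholine receptor, synapsin, complexin and neurexin. The table holds only assembled transcripts, so a term without a match says nothing of whether the gene is used in the gut.

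Names came from the best protein hit in another species, which was the black soldier fly Hermetia illucens for 16 of the 36, with 13 species in all. The aligned residues were identical in 36.1% to 97.5% of positions, with a median of 71.1% against 65.5% over all unigenes. The best conserved names were the GABA receptor-associated protein at 97.5%, a GABA type B receptor subunit at 95.7%, synaptotagmin 1 at 95.5% and CUGBP Elav-like family member 4 at 94.3%. The least conserved was the unigene named neuropeptide Y receptor type 5, at 36.1%. Only 7 members covered at least 90% of their hit and 14 covered under 50%, so many are parts of a coding sequence.

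**Figure D1:**
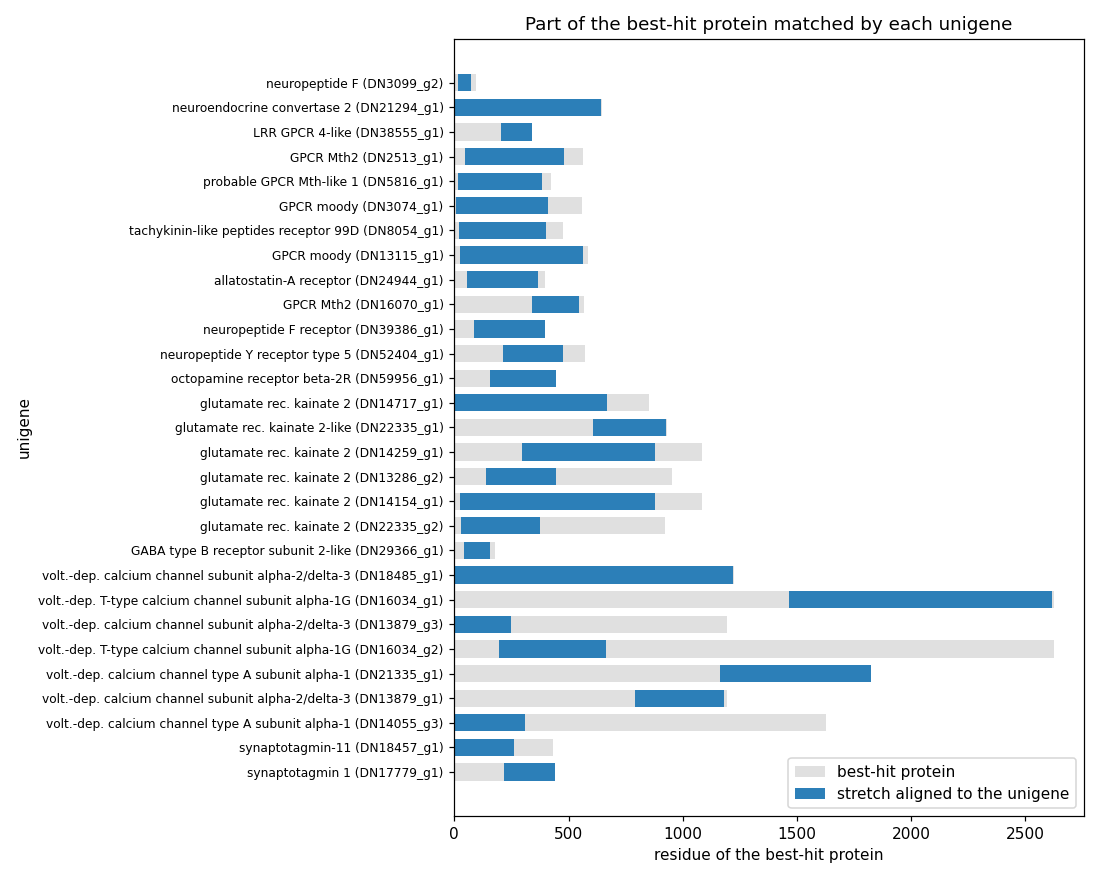
Stretch of the best protein hit aligned to each unigene, in residues of that hit from its start (left) to its end (right). The RNA-binding proteins and the 2 proteins that only carry a searched word are left out. Neuroendocrine convertase 2 and an alpha-2/delta-3 unigene (DN18485) span nearly their whole hit, at 99.4% and 99.2%. The other calcium channel and the glutamate receptor unigenes often cover an end or a middle stretch.

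Levels are given in FPKM, fragments divided by transcript length and library depth, which allows comparison between unigenes of different length. As a group the members were low. The median over members of the mean FPKM was 1.54, against 8.69 over all unigenes, and the median level was 1.32 against 3.18 on the log2(FPKM + 1) scale. An FPKM of at least 1 in all 3 flies was reached by 16 members, or 44.4%, beside a background of 81.6% of all unigenes. Another 8 members stayed below 1 in every fly. These are whole-tissue values, in which fewer cells of a type and less RNA per cell cannot be told apart.

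Taken one fly at a time, 20, 18 and 28 members reached an FPKM of 1 in flies 1, 2 and 3. The members summed to 612, 507 and 723 FPKM in flies 1, 2 and 3, which was 0.0972%, 0.0798% and 0.113% of the summed FPKM of the table. The mean share was 0.0965% ± 0.0164 (SD, n = 3). A single unigene dominated these sums. Without the GABA receptor-associated protein and extended synaptotagmin-2, whose names only borrow a searched word, the sums were 262, 220 and 344 FPKM.

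**Figure D2:**
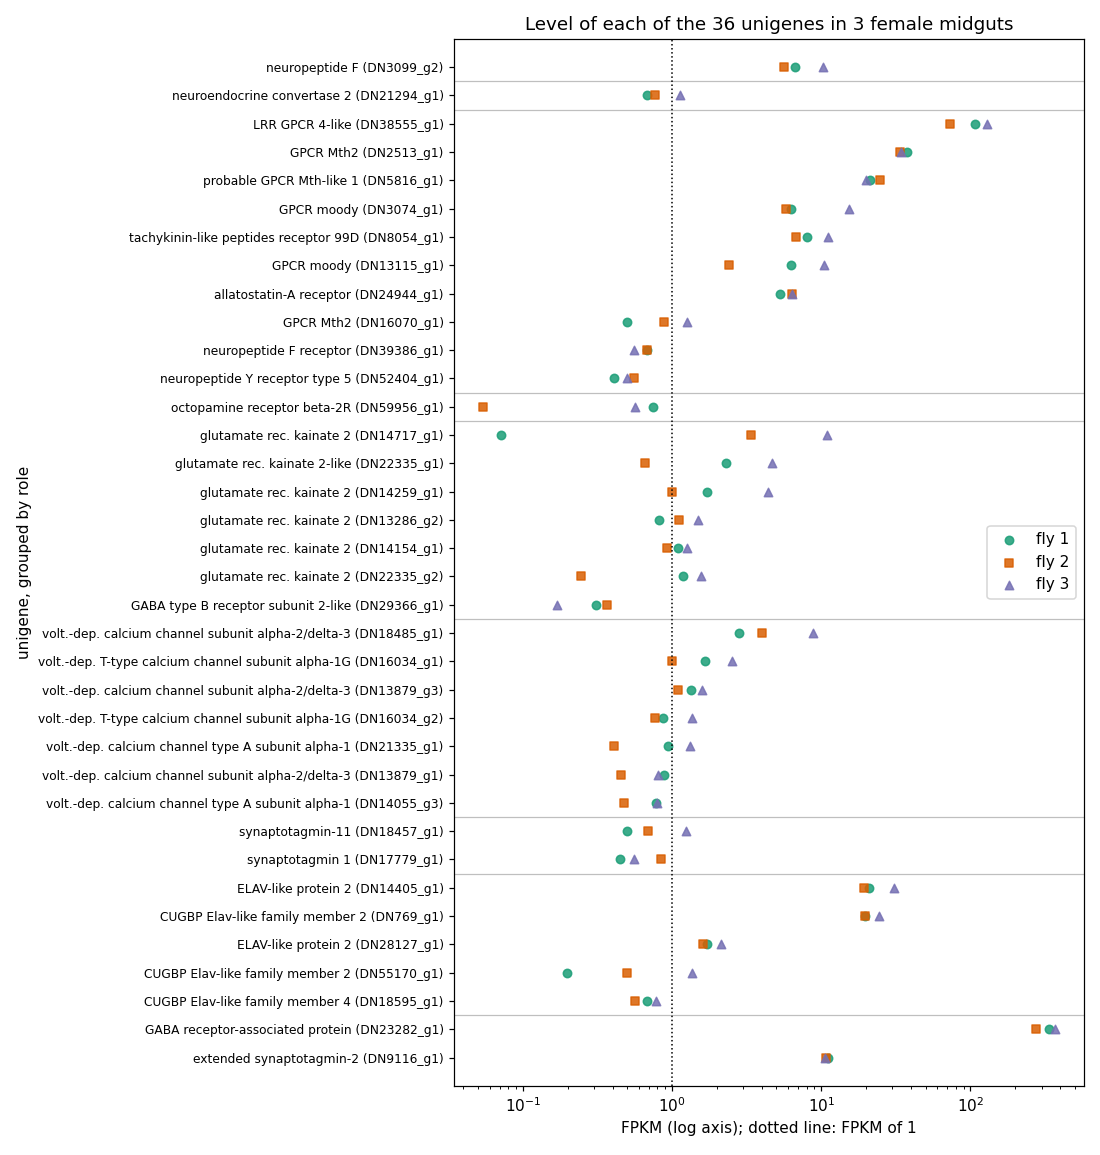
FPKM (log axis) of each of the 36 unigenes in each fly, 1 point per fly, grouped by role, with a dotted line at an FPKM of 1. The GABA receptor-associated protein and the leucine-rich repeat receptor stand at the right, and a kainate receptor unigene (DN14717) spreads from 0.0714 in fly 1 to 10.9 in fly 3.

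The peptide precursor was neuropeptide F (TRINITY_DN3099_c0_g2_i19, 1083 bases), the insect relative of vertebrate neuropeptide Y, which in Drosophila is made by brain neurons and midgut enteroendocrine cells and acts on feeding and lipid use. It had 6.65, 5.60 and 10.2 FPKM in flies 1, 2 and 3, a mean of 7.49 ± 2.41 (SD, n = 3). All 3 flies carried it, with fly 3 highest at 1.82 times the lowest. It stood at 6.81, 6.68 and 8.06 after scaling each fly to the median unigene. It ranked 4404 of 8039 by mean FPKM, and its alignment covered residues 15 to 75 of a protein of 95 residues at 59.0% identity.

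Neuroendocrine convertase 2, the protease that cuts peptide precursors at basic sites inside secretory granules, was far lower (TRINITY_DN21294_c0_g1_i1). It was covered almost completely, with residues 1 to 642 of 646 at 88.6% identity. Its values were 0.679, 0.765 and 1.14 FPKM, a mean of 0.861 ± 0.244 (SD, n = 3), from 26, 31 and 40 fragments. Only fly 3 reached 1. Exact 95% Poisson intervals on these fragments overlapped between the highest and the lowest fly, so a difference was not detectable at this depth. Such intervals cover counting error only.

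The named peptide receptors split by level. The tachykinin-like peptides receptor 99D (TRINITY_DN8054_c0_g1_i7, 83.0% identity) is known in Drosophila as a receptor of tachykinins, peptides of gut endocrine cells and neurons. It stood at 8.03, 6.78 and 11.1 FPKM, a mean of 8.62 ± 2.20 (SD, n = 3). Its values were 8.23, 8.09 and 8.73 after scaling each fly to the median unigene. The allatostatin-A receptor (TRINITY_DN24944_c0_g1_i3, 60.0% identity), which senses peptides that inhibit juvenile hormone synthesis in some insects and act on feeding and the gut in Drosophila, stood at 5.29, 6.34 and 6.42 FPKM. Its mean was 6.02 ± 0.633 (SD, n = 3), its flies lay within 1.21-fold, and their counting intervals overlapped. Scaled in the same way, it stood further apart, at 5.41, 7.57 and 5.07. The mean of each of these receptors differed from that of neuropeptide F by less than the SD of neuropeptide F over flies.

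The receptor of neuropeptide F itself was low (TRINITY_DN39386_c0_g1_i1, 72.5% identity). It had 0.678, 0.681 and 0.554 FPKM, a mean of 0.638 ± 0.0724 (SD, n = 3), which rested on 16, 17 and 12 fragments. In each fly it was below the level of its peptide. The unigene named neuropeptide Y receptor type 5, the vertebrate family to which the neuropeptide F receptor is related, had 0.411, 0.560 and 0.497 FPKM. Neither reached 1 in any fly.

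The highest receptors were ones without a named peptide. The top one carried the name leucine-rich repeat-containing G-protein coupled receptor 4-like (TRINITY_DN38555_c0_g1_i9), with 107, 73.1 and 129 FPKM, a mean of 103 ± 28.2 (SD, n = 3). In vertebrates that name belongs to a receptor of R-spondins. The alignment covered residues 206 to 338 of 342 at 45.1% identity, or 38.9% of the hit, so the name rests on a short and weak match. It held more than any other receptor among the members, and the 10 receptors summed to 193, 155 and 229 FPKM with it and to 86.5, 81.7 and 99.8 without it.

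Next came receptors of the Methuselah family, a group of insect receptors whose founding gene is known for effects on lifespan and stress resistance in Drosophila. A unigene named Mth2 (TRINITY_DN2513_c0_g1_i11) stood at 37.8, 33.6 and 34.4 FPKM, a mean of 35.3 ± 2.26 (SD, n = 3), and the probable receptor Mth-like 1 (TRINITY_DN5816_c0_g1_i3) at 21.2, 24.6 and 19.8, a mean of 21.9 ± 2.47. These were among the steadiest members in FPKM as given, with the highest fly at 1.13 and 1.24 times the lowest. After scaling each fly to the median unigene they stood further apart, at 38.7, 40.1 and 27.2 for Mth2 and 21.7, 29.4 and 15.7 for Mth-like 1. The alignments of the pair were 38.8% and 44.1% identical. A further Mth2 name (TRINITY_DN16070_c0_g1_i2) had 0.504, 0.883 and 1.25 FPKM.

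Moody, a receptor of the glia that form the blood-brain barrier in Drosophila, was the name of 2 unigenes. TRINITY_DN3074_c0_g1_i18 (74.1% identity) had 6.31, 5.83 and 15.3 FPKM, a mean of 9.16 ± 5.36 (SD, n = 3). TRINITY_DN13115_c0_g1_i4 (58.9% identity) had 6.27, 2.40 and 10.4 FPKM, a mean of 6.37 ± 4.02. Both were highest in fly 3 and lowest in fly 2, and the second spanned 4.34-fold between them. Both stayed highest in fly 3 after scaling each fly to the median unigene. DN3074 then had 6.46, 6.96 and 12.1, lowest in fly 1, and DN13115 had 6.43, 2.87 and 8.24. The amine receptor class held the octopamine receptor beta-2R (TRINITY_DN59956_c0_g1_i1), a receptor for the invertebrate counterpart of noradrenaline. It had 0.745, 0.0541 and 0.562 FPKM from 13, 1 and 9 fragments. The counting intervals of flies 1 and 2 lay apart, on numbers close to the limit of what these libraries can count.

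**Figure D3:**
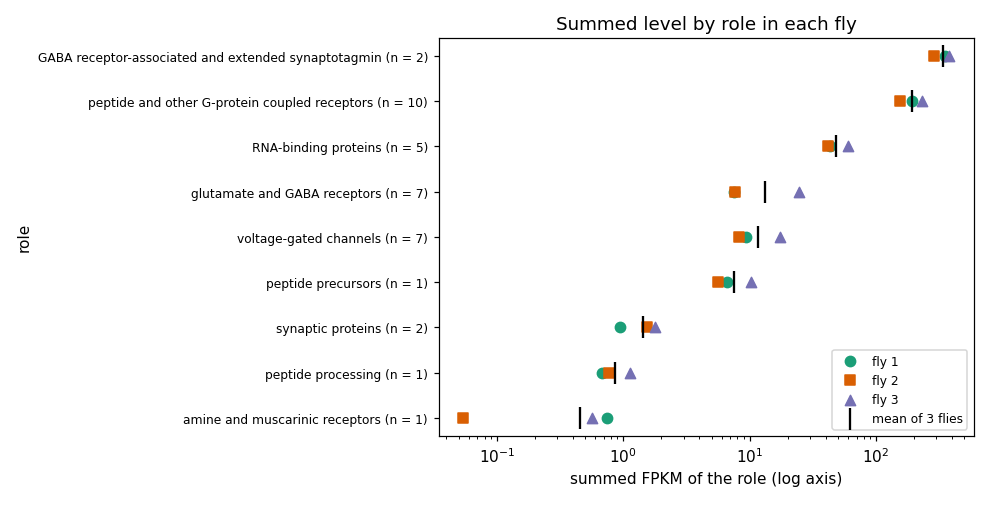
Summed FPKM (log axis) of each role class in each fly, 1 point per fly, with the number of unigenes in brackets. The class named by association (the GABA receptor-associated protein and extended synaptotagmin-2) and the G-protein coupled receptors hold the most, and the glutamate and GABA receptors separate fly 3 at 24.5 from flies 1 and 2 at 7.49 and 7.72.

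Glutamate receptors of the kainate type held the unigene with the widest difference between individuals. Kainate receptors are channels opened by glutamate, which is the transmitter of excitatory nerve-muscle contacts in insects. The 6 unigenes summed to 7.18, 7.35 and 24.3 FPKM in flies 1, 2 and 3. A single one carried much of this, a kainate 2 unigene (TRINITY_DN14717_c0_g1_i9, 3511 bases, 81.9% identity over residues 3 to 670 of 852). It had 0.0714, 3.39 and 10.9 FPKM, a mean of 4.79 ± 5.56 (SD, n = 3), from 4, 201 and 562 fragments. The 95% counting intervals were 0.0194 to 0.183 in fly 1, 2.94 to 3.89 in fly 2 and 10.04 to 11.9 in fly 3, and none overlapped.

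The fold between its highest and lowest fly was 153 in FPKM and 11.1 in FPKM + 1, the widest of any member. The same order, lowest in fly 1 and highest in fly 3 with at least 4-fold between them in FPKM + 1, was found in 301 of the 7384 unigenes whose mean FPKM was 1 or more, or 4.08%. Among the members with that mean it was found in this unigene alone. The other 5 glutamate receptor unigenes summed to 7.11, 3.96 and 13.4 FPKM, with fly 2 lowest instead of fly 1.

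All 5 were highest in fly 3, beside 66.5% of all unigenes. A kainate 2-like unigene (TRINITY_DN22335_c0_g1_i2) had 2.29, 0.665 and 4.66 FPKM, and its neighbour in the same assembly cluster (TRINITY_DN22335_c0_g2_i2) had 1.18, 0.248 and 1.57. They cover separate stretches of their hits, residues 606 to 925 of 932 and 31 to 373 of 923. Both were lowest in fly 2, with the highest fly at 7.02 and 6.34 times that level. TRINITY_DN14259_c0_g1_i16 had 1.73, 1.01 and 4.41 FPKM, and TRINITY_DN14154_c0_g1_i8 had 1.09, 0.932 and 1.26. This pair shares a best hit with 579 overlapping residues, so the division of reads between them is uncertain. TRINITY_DN13286_c0_g2_i5 had 0.824, 1.11 and 1.51 FPKM. For DN13286 and DN14154 the counting intervals of highest and lowest fly overlapped. After scaling each fly to the median unigene, DN14154 was highest in fly 1 and DN13286 in fly 2, and the others stayed highest in fly 3. Of all unigenes, 41.1% were highest in fly 3 after scaling.

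The GABA type B receptor subunit 2-like unigene (TRINITY_DN29366_c0_g1_i2) belongs to the G-protein coupled class of receptors for the inhibitory transmitter GABA. It had 0.311, 0.368 and 0.170 FPKM from 4, 5 and 2 fragments, among the lowest of the members in each fly.

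Calcium channel subunits, which admit the calcium that triggers vesicle release and muscle contraction, summed to 9.28, 8.24 and 17.2 FPKM over 7 unigenes. The highest was a subunit alpha-2/delta-3, an accessory subunit that helps bring channels to the membrane (TRINITY_DN18485_c0_g1_i27, 4384 bases, residues 4 to 1218 of 1225 at 69.9% identity). It had 2.80, 4.04 and 8.84 FPKM, a mean of 5.23 ± 3.19 (SD, n = 3). Fly 3 was above both others, at 3.16 times fly 1.

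The pore-forming subunit alpha-1G of T-type channels, which open at low voltage, appeared as 2 unigenes of 1 assembly cluster that match the same protein over separate stretches, residues 1465 to 2615 and 197 to 666 of 2623. They had 1.67, 1.00 and 2.54 FPKM (TRINITY_DN16034_c0_g1_i12) and 0.867, 0.771 and 1.36 FPKM (TRINITY_DN16034_c0_g2_i3), in the same order of flies. After scaling each fly to the median unigene, the former was lowest in fly 2 and the latter in fly 1. The other 4 subunits had means between 0.682 and 1.34 FPKM. They comprise 2 further alpha-2/delta-3 unigenes of 1 cluster and 2 unigenes named type A subunit alpha-1, a pore-forming subunit of presynaptic channels. The lowest fly was fly 2 for each of these 4, and the share of all unigenes lowest in fly 2 was not counted. Counting intervals of highest and lowest fly lay apart only for the type A unigene TRINITY_DN21335_c0_g1_i4. After scaling, the alpha-2/delta-3 unigene TRINITY_DN13879_c0_g3_i1 was lowest in fly 3 instead, at 1.37, 1.31 and 1.25.

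The synaptotagmins are calcium-sensing proteins of vesicle membranes, and synaptotagmin 1 is the calcium sensor of fast transmitter release. Synaptotagmin-11 (TRINITY_DN18457_c0_g1_i3, 86.8% identity) had 0.499, 0.686 and 1.24 FPKM from 11, 16 and 25 fragments. Synaptotagmin 1 (TRINITY_DN17779_c0_g1_i4) had 0.447, 0.844 and 0.556 FPKM from 7, 14 and 8 fragments. Each differed between flies by less than counting error could show.

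The RNA-binding class summed to 48.1 ± 9.89 FPKM (SD, n = 3), above the 11.6 ± 4.92 of the calcium channels and the 1.42 ± 0.433 of the synaptotagmins. ELAV-like proteins bind AU-rich RNA, and the founding Drosophila gene elav is a marker of neurons, while relatives of it are used more widely. An ELAV-like protein 2 unigene (TRINITY_DN14405_c0_g1_i18, residues 2 to 350 of 350 at 90.6% identity) stood at 21.1, 19.3 and 30.9 FPKM, a mean of 23.7 ± 6.22 (SD, n = 3). CUGBP Elav-like family member 2 (TRINITY_DN769_c0_g1_i1, 57.0% identity), of a family of splicing and translation regulators distinct from ELAV, stood at 19.6, 19.6 and 24.4 FPKM, a mean of 21.2 ± 2.75. The means of this pair differed by less than the spread of the former.

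The remaining 3 of this class were lower. A further ELAV-like protein 2 unigene (TRINITY_DN28127_c0_g1_i2) had 1.71, 1.61 and 2.13 FPKM. CUGBP Elav-like family member 4 (TRINITY_DN18595_c0_g1_i4) had 0.676, 0.563 and 0.779. A further family member 2 unigene (TRINITY_DN55170_c0_g1_i1) had 0.199, 0.5004 and 1.37 FPKM from 3, 8 and 19 fragments, a span of 6.90-fold on few reads. All 5 of the class were highest in fly 3, beside 66.5% of all unigenes. It was 2 of the 5 after scaling each fly to the median unigene, beside 41.1%.

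The most abundant member was the GABA receptor-associated protein (TRINITY_DN23282_c0_g1_i14), which despite its name is a member of the Atg8 family that coats autophagy membranes, and is used in most cells. It covered residues 1 to 118 of a hit of 118. It had 338, 276 and 368 FPKM, a mean of 328 ± 46.8 (SD, n = 3), and ranked 213 of 8039. Extended synaptotagmin-2 (TRINITY_DN9116_c0_g1_i41) tethers the endoplasmic reticulum to the plasma membrane and is no vesicle sensor. Before scaling it was the steadiest member, at 11.1, 10.8 and 10.7 FPKM, with a ratio of 1.04 between the highest and lowest fly. After scaling each fly to the median unigene it stood at 11.4, 12.9 and 8.43.

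Differences between the individuals were judged by a rule of size, a mean FPKM of at least 5 and at least 4-fold between highest and lowest fly in FPKM + 1. None of the 13 members with that mean met it, beside a background of 9.42% of unigenes. With a mean of at least 1, the kainate 2 unigene DN14717 was the 1 of 21 members that did, beside 10.2%. The moody unigene DN13115 also met the rule at a mean of 5 when the pseudocount was 0.1, as 1 of 13 members, beside 10.6%. The median SD over flies on the log2(FPKM + 1) scale was 0.32 for the 21 members and 0.38 for all unigenes at that level. It was 0.15 for members without fly 3, where it was 0.22 for all unigenes. Highest and lowest fly had counting intervals apart in 19 of the 36 members, beside 82.9% of all unigenes. The share depended on level. It was 5 of 20 members with a mean under 2, beside 61.3%, and 14 of 16 above, beside 87.1%.

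**Figure D4:**
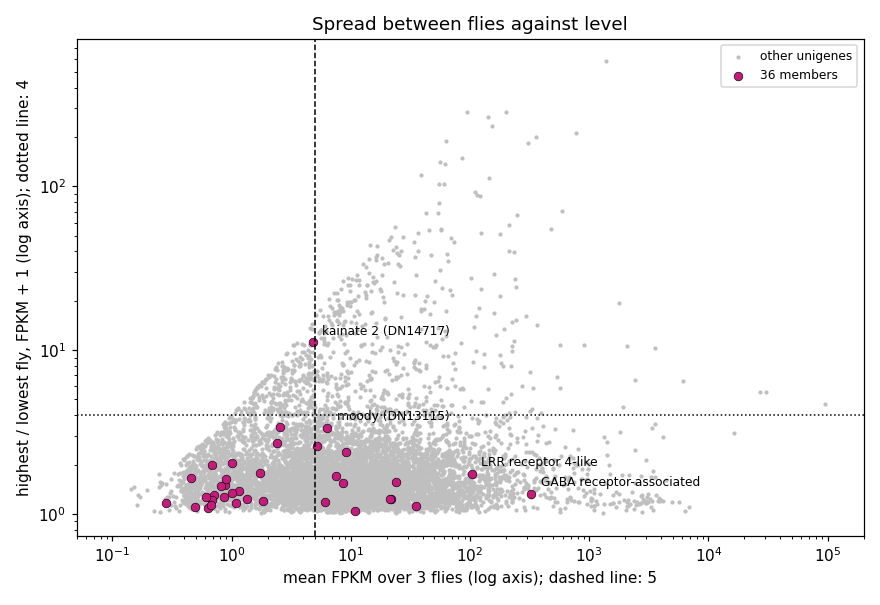
Spread between flies (highest over lowest fly in FPKM + 1, log axis, n = 3) against mean FPKM (log axis) for all unigenes and for the 36 members. The members sit mostly at low levels, and the kainate 2 unigene DN14717 stands above the others.

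Fly 3 was highest for 18 of the 21 members whose mean FPKM was 1 or more, beside a background of 66.1% of unigenes, and for 27 of all 36, beside 66.5%. Fly 1 was highest for 2, beside 21.6%, and fly 2 for 1, beside 12.4%. The median shift of the 21 in fly 3 against the other flies was 0.52 on the log2(FPKM + 1) scale, and it was 0.42 over all unigenes. After scaling each fly to the median unigene, the shift was 0.08 for members and -0.01 for all unigenes, and fly 3 was highest for 10 of the 21, beside 39.3%. In fly 2 the members' shift was -0.28 before scaling, beside -0.33 over all unigenes, and 0.04 after it, beside 0.02. In fly 1 it was -0.08, beside -0.05, and 0.14 without fly 3, beside 0.18.

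Related genes outside the rule, in lists that are again name patterns, were mostly higher. Peptide-trimming names (8 unigenes, 7 of them at 1 FPKM or more in all flies) summed to 640, 528 and 485 FPKM. They were led by subunits of the signal peptidase used by all secretory cells, SEC11A at 349, 258 and 242 and subunit 2 at 180.4, 175 and 133. Furin-like protease 1, a general precursor protease, had 22.2, 17.98 and 27.6 FPKM, above neuroendocrine convertase 2 in every fly. Peptidylglycine monooxygenase, which starts the amidation that many neuropeptides need, had 3.83, 0.305 and 3.87 FPKM, lowest in fly 2.

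Of 20 vesicle fusion names all 20 reached 1 FPKM in every fly, with sums of 274, 239 and 339. The leading ones serve membrane traffic in any cell, such as SNAP-29 at 62.2, 43.7 and 58.1 FPKM and alpha-SNAP at 43.2, 38.7 and 52.9. Of the names tied to synapses, SNAP-25 had 6.61, 8.56 and 5.78 FPKM, syntaxin-1A 1.57, 1.34 and 3.04, and Rab-3 1.55, 1.35 and 1.43. These 3 were above synaptotagmin 1 in each fly.

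Transmitter enzymes and transporters included 20 names, of which 8 reached 1 FPKM in all flies. Of the 9 with a mean of at least 5, 5 met the rule of size, beside the background of 9.42%. The leading ones were excitatory amino acid transporter 3-like, which clears glutamate, at 44.1, 21.1 and 128 FPKM, and the transporter ine at 50.1, 33.5 and 54.5. Acetylcholinesterase, the enzyme that breaks down acetylcholine, was the name of 4 unigenes with different orders of flies. TRINITY_DN19117_c0_g1_i8 had 0.399, 9.73 and 21.5 FPKM and TRINITY_DN534_c0_g1_i12 had 0.487, 9.502 and 30.1, both lowest in fly 1 and highest in fly 3. TRINITY_DN26601_c0_g1_i4 ran the opposite way at 12.0, 7.003 and 1.95, and TRINITY_DN2622_c0_g1_i13 had 8.48, 8.15 and 14.0.

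In 3 further lists none of the 25 names with a mean of at least 5, of 63 in all, met the rule of size, beside 9.42%. With a mean of at least 1 it was met by 2 of 55, beside 10.2%, the potassium channels Shaw-like (0.698, 0.627 and 9.03 FPKM) and subfamily K member 1 (0.333, 2.33 and 6.64). Other channels (30 names) summed to 422, 378 and 441 FPKM, led by innexin inx7, a gap junction protein, at 211, 162 and 157, and by the calcium channel flower at 48.9, 50.2 and 46.8. G-protein signalling (24 names) summed to 299, 252 and 334, led by a catalytic subunit of protein kinase A at 85.7, 58.3 and 79.3 and a type II regulatory subunit at 60.1, 60.8 and 63.0. Other peptide and hormone receptors (9 names) summed to 64.0, 62.4 and 98.6. The leading ones were a glucose-dependent insulinotropic receptor-like name at 17.4, 15.0 and 28.6 FPKM and atrial natriuretic peptide receptor 1 at 16.0, 12.9 and 30.7.

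Markers of cells that a dissected midgut could carry were counted beside these values. The samples had the trypsin names of a midgut, 13 unigenes with 7412, 7907 and 4273 FPKM. Enteroendocrine names were 5 unigenes, all of them members, and summed to 21.3, 20.2 and 29.4 FPKM. They were neuropeptide F, neuroendocrine convertase 2 and the receptors of tachykinins, allatostatin-A and neuropeptide F. Receptors mark cells that sense a peptide, so this sum is no measure of the cells that make peptides. Neuron names (9), which include the 5 RNA-binding members, summed to 74.7, 72.1 and 102, and glia names (3), of which 2 are the moody unigenes and the other is draper at 15.6, 8.54 and 27.0, to 28.2, 16.8 and 52.8. Stem and progenitor names (3), led by escargot-like unigenes, summed to 24.2, 18.7 and 29.9. Visceral muscle names (15) summed to 650, 659 and 1426, led by muscle LIM protein Mlp84B-like at 248, 233 and 545 and troponin C at 92.2, 111 and 229. Before scaling, fly 3 was highest in the sums of the enteroendocrine, neuron, glia, stem and muscle lists, as it was for 66.1% of unigenes. After scaling each fly to the median unigene it stayed highest for glia (28.9, 20.0 and 41.7) and muscle (665, 786 and 1126). It was not highest for enteroendocrine names (21.8, 24.1 and 23.2), neuron names (76.5, 86.0 and 80.6) or stem names (24.8, 22.3 and 23.6). The trypsin sum before scaling was lowest in fly 3 through 1 unigene. Without it the other 12 summed to 3254, 1748 and 2183, lowest in fly 2. Scaled, all 13 summed to 7592, 9437 and 3375. Of these 13 names, 9 were lowest in fly 3 after scaling and 3 before it.

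Names of neighbouring tissues were set beside the kainate 2 unigene DN14717. Fat body names (9) summed to 6.75, 24.3 and 97.3 FPKM, with apolipophorins at 0.619, 13.8 and 64.1, and 1 of the 9 was at 0 in fly 1. Of the 9, 7 ran from lowest in fly 1 to highest in fly 3, as the kainate 2 unigene did, and 6 did after scaling. Of the 15 visceral muscle names 6 ran so, and 12 after scaling. The share of all unigenes in that order, with no fold required, was not counted, so these counts do not set a list apart. Without apolipophorins the fat body sum was 6.13, 10.6 and 33.2. Malpighian tubule names (11) summed to 130, 188 and 302, with uricase at 0.0450, 23.2 and 146 but xanthine dehydrogenase (TRINITY_DN6180_c0_g1_i3) at 69.9, 88.7 and 57.9. Of these 11, 4 ran in that order, and 5 after scaling. Without uricase the other 10 summed to 129.5, 165 and 156, highest in fly 2. Vitellogenin-1-like had 2.79, 3.21 and 12.4. Hemocyte names (3), led by croquemort-like at 49.5, 25.0 and 64.6, summed to 51.7, 29.1 and 71.3. Eye and antenna names (2) summed to 0.991, 0.0893 and 3.27, with chaoptin at 0 in fly 2, and no trachea name was matched. The part of other tissues, of muscle or of the state of the fly in the members' differences was not tested.

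**Figure D5:**
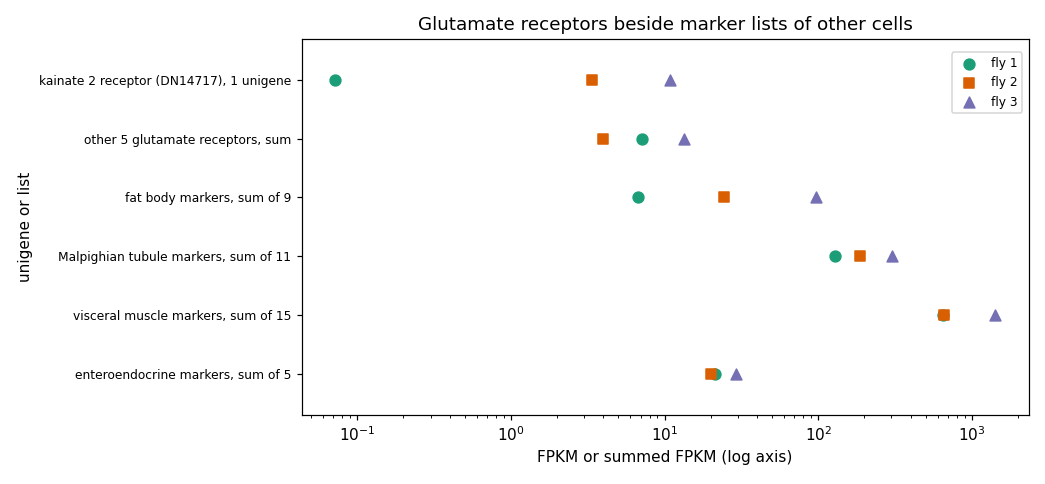
FPKM of the kainate 2 unigene DN14717 and summed FPKM (log axis) of the other 5 glutamate receptors and of marker lists, 1 point per fly. The fat body sum has the order of the kainate 2 unigene, lowest in fly 1 and highest in fly 3. The visceral muscle sum is highest in fly 3 and nearly level in flies 1 and 2, at 650 and 659. Of its 15 names, 8 are lowest in fly 2. The Malpighian tubule sum has the order of the kainate 2 unigene only with uricase included, while the other glutamate receptors are lowest in fly 2.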

How the data were processed

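Midguts of 3 individual female flies were analysed as 1 group. Per the file headers, the deposited table gives FPKM values computed by the authors for each unigene and fly, together with the unigene's length, the nearest protein found and the percent of residues identical to it. Unigene identifiers start with the name of the assembler Trinity. The sources used here do not give its version, the filters on transcripts, the aligner, the counting tool or the protein search. Poly(A) selection or ribosomal depletion is not stated either. The column of fly 3 carries the number 4 and was matched through the third sample's description in the labels.

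FPKM times length summed to 1e+09 in each fly. Dividing it by its smallest value gave whole reads, within 0.001, for 97.1%, 97.3% and 97.3% of unigenes, and depths of 31922570, 33797869 and 29308867 reads. A fragment was taken as 2 reads, and exact 95% Poisson intervals on fragments cover counting error only. Between pairs of flies these intervals lay apart for 49.4% to 71.5% of unigenes, so no library was a copy of another.

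Terms were searched in the first title of each unigene without regard to case. An exclusion word left out 1 name, neurexin-4. Members were classed by words in the title. Named are all members whose mean FPKM was 5 or more, the 2 highest of each role class and list (described for markers where a value touches a result), and any member meeting the rule of size; further members and list genes were named after their values were seen. Related and marker lists were matched at word starts, and false matches were removed by name after the matches were seen. The members and lists were chosen with earlier results of these data known. The trypsin list, the scaled sums of lists and the sums without 1 unigene were added after seeing the data.

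Log values are log2(FPKM + 1). Fold changes on that scale understate differences of low genes. No test was made, since 1 group holds no contrast, and unigenes are not replicates. Alternatives were a pseudocount of 0.1, other filters and thresholds, median-of-ratios scaling (size factors 0.976, 0.838 and 1.27), other sets of members and leaving out each fly. The calculations were tested on simulated data and run in Python 3.11.15 with numpy 2.4.6, pandas 2.3.3, scipy 1.17.1 and matplotlib 3.10.9.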

Additional observations from a re-analysis of the deposited data

How the results depend on the processing

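Of 79 alternative values, 2 reversed, 22 moved by more than the spread between flies or, for counts, by over 1.5 times, and 55 stayed within those limits. The count of members at 1 FPKM or more in all flies was 16, or 44.4%, beside 81.6% of all unigenes. It was 34 with a minimum of 0.1, or 94.4%, beside 95.8%. With a minimum of 5 it was 11, or 30.6%, beside 54.0%. The members' share of summed FPKM was 0.0965%, and it was 0.0433% without the names by association, 0.0710% for members of at least 50% identity and 0.141% without the 10 most abundant unigenes. In choices added after seeing the data it was 0.0288% without the 2 most abundant members and 0.0398% without CUGBP Elav-like names and names by association. The median level was 0.65 with a pseudocount of 0.1. The count meeting the rule of size was 0 of 13, beside 9.42% of unigenes, and 3 with a fold of 2, beside 30.3%. It was 1 of 13 with a pseudocount of 0.1, beside 10.6%. With a mean of at least 1 it was 1 of 21, beside 10.2%, and with no filter 1 of 36, beside 9.33%. It was 0 to 1 when a fly was left out, beside 3.08% to 7.77%. The median SD was 0.23 after scaling and 0.23 without a filter, and 0.15 to 0.29 when a fly was left out. The median shift reversed in fly 1 without fly 3 (range -0.32 to 0.14 over flies left out) and in fly 2 after scaling (0.0399). The median over all unigenes changed sign in both settings too, to 0.18 and 0.02. In fly 3 the members' shift was 0.0802 after scaling, 0.33 without a filter and 0.32 to 0.42 when a fly was left out. Over all unigenes these were -0.01, 0.43 and 0.33 to 0.53. Fly 3 was highest for 10 of 21 members after scaling, beside 39.3%, and for 10 of the 13 with a mean of at least 5, beside 65.0%. The cause of these changes was not tested. No paired analysis was possible because the study has 1 group. Depth limits the members under an FPKM of about 1, which rest on few fragments, and 3 individuals of unstated feeding state limit any statement on the species.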
